A study of Mus musculus with 2 samples.

Results

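The genes of major histocompatibility complex (MHC) class I and class II antigen presentation were taken from the deposited expression table of mouse M-MDSCs by gene name. The members were the genes whose name starts with H2- and the genes B2m, Tap1, Tap2, Tapbp, Cd74, Ciita, Erap1, Cd1d1, Mr1, Rfx5, Rfxap, Rfxank and Nlrc5. This gave 57 of the 34745 genes listed, of which 39 belong to class I, 15 to class II and 3 (H2-Ke6, H2-Pa and H2-Pb) to neither. The rule itself used names only, but it was set with earlier results of these data known.

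Bone marrow cells of C57BL/6 mice were cultured for 7 days with GM-CSF, a growth factor of myeloid cells, either alone (CHBP- M-MDSC) or with CHBP, a cyclic peptide derived from erythropoietin that does not drive red cell formation (CHBP+ M-MDSC). The strain label reads C57BL/6 for CHBP- and C57BL/7 for CHBP+, while the study's methods give C57BL/6 mice, and whether the animals differed was not tested. M-MDSCs, the monocytic myeloid-derived suppressor cells, were then sorted by flow cytometry as CD11b+ Ly6G- Ly6C high cells, and their total RNA was sequenced. Each condition is 1 library, so no spread between cultures or animals can be estimated and no test between the conditions was made.

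MHC class I molecules carry peptides from inside the cell to CD8+ T cells. Their heavy chains pair with β2-microglobulin in the endoplasmic reticulum, where peptides arrive through the TAP transporter, and the factor NLRC5 drives the transcription of the heavy chains, B2m and Tap1. MHC class II molecules carry peptides from endosomes to CD4+ T cells and are a mark of dendritic cells, B cells and activated macrophages. The invariant chain CD74 escorts them to the endosome, H2-DM loads their peptides, H2-O restrains H2-DM, and the transactivator CIITA works with the RFX factors at the X box and with NF-Y at the Y box of their promoters.

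Promoters of 4 members that carried many of the reads of their class, though not the most, are printed here as examples of motif matches. Each is the window of 250 bases before a RefSeq transcript start on GRCm38.p6, in the direction of transcription, with motif matches in capitals. The capitals mark CTNGCAAC (a form of the X box core) and CCAAT or its reverse complement ATTGG (the Y box core) in H2-Aa and H2-Eb1, GGGATTCCC (a kappa B motif) and ATTGG in H2-K1, and the reverse complement of TTCNNTTTC (an interferon response core) and ATTGG in B2m. H2-Aa lies at chr17:34287824-34288073 on the minus strand, H2-Eb1 at chr17:34305617-34305866 on the plus strand, H2-K1 at chr17:34000348-34000597 on the minus strand, and B2m at chr2:122147437-122147686 on the plus strand.
H2-Aa: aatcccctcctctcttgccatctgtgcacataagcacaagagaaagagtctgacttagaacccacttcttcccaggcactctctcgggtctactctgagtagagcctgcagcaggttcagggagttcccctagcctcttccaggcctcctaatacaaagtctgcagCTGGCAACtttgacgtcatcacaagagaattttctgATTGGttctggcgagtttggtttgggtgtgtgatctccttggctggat
H2-Eb1: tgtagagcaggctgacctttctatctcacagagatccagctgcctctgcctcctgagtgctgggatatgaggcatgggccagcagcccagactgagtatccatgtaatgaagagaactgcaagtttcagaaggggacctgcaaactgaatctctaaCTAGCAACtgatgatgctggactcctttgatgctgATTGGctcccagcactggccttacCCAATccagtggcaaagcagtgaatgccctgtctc
H2-K1: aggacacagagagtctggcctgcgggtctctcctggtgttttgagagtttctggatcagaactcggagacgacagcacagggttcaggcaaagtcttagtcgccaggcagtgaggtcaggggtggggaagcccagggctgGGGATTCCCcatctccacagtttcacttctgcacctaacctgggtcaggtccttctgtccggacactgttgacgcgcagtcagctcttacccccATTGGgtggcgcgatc
B2m: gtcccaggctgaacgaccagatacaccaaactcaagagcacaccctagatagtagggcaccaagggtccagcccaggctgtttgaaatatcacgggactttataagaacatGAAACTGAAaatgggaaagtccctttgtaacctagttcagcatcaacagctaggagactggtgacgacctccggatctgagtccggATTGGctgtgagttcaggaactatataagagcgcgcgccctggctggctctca
In H2-Aa the X box core lay 77 to 84 bases before the start and the Y box core 44 to 48 bases before it. In H2-Eb1 the X box core lay 87 to 94 bases before the start, and its nearer and farther Y box cores lay 31 to 35 and 55 to 59 bases before it. These matches are descriptions of the letters in the window and show no binding.

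The counts summed to 16484504 reads in CHBP- and 16280466 in CHBP+ M-MDSC. A gene without reads could still have been present at up to 0.182 CPM (a gene's reads scaled to all counted reads) in CHBP- and 0.184 CPM in CHBP+, the level of 3 reads. The sorting markers were checked in both libraries. Itgam, which encodes CD11b, is listed as 2 overlapping entries, the first with 157 FPKM (reads scaled to gene length and library total) in CHBP- and 232 FPKM in CHBP+, the other with 8703 and 13147 reads. Ly6g was low, at 2.19 and 2.12 FPKM. Of the genes of the Ly6C antigen, Ly6c2 was present at 56.9 FPKM in CHBP- and 34.0 FPKM in CHBP+, a CPM ratio of 0.597 (0.567 to 0.628), and Ly6c1 at 3.70 and 2.91 FPKM, a ratio of 0.786 (0.633 to 0.973).

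Transcripts of most antigen presentation genes with at least 1 FPKM were moderately less abundant in CHBP+ than in CHBP- M-MDSC, in both classes. Ratios between the libraries went along with transcript length over all genes, as given below. With that trend removed, the median log2 ratio of FPKM + 1 was -0.14 for class I and -0.06 for class II, beside -0.01 for all genes. The 57 members together held 134548 reads in CHBP-, 0.816% of the library, and 107299 reads in CHBP+, 0.659%. The ratio of these shares was 0.807, with a 95% Clopper-Pearson interval from 0.801 to 0.814. For class I the share went from 0.572% to 0.467%, a ratio of 0.816 (0.809 to 0.824), and for class II from 0.243% to 0.191%, a ratio of 0.787 (0.775 to 0.798). All intervals given here cover counting error only, and a lower number of cells with these transcripts cannot be told apart from less RNA per cell.

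Of the 57 members, 36 reached 1 FPKM in either library, 3 had reads but stayed below 1 FPKM, and 18 had no read in either library. Among the 36, 26 were lower (72.2%) and 10 were higher in CHBP+, beside 53.7% lower over the 10948 genes with at least 1 FPKM. No member was 1.5-fold higher or lower on the scale of FPKM + 1, the fold that the study's methods used as its threshold, where 3.42% of those 10948 genes were that much higher and 2.89% that much lower. The interval of the CPM ratio lay below 1 for 23 of the 36 members (63.9%) and above 1 for 5 (13.9%), where it did so for 31.0% and 27.9% of the 10948 genes. The members were read more deeply than most genes, with a median of 1042 and 827 reads in CHBP- and CHBP+ against 589 and 586, which narrows their intervals. The median log2 ratio of FPKM + 1 was -0.23 for the 21 class I members above the minimum and -0.19 for the 14 of class II, beside -0.03 for all genes.

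**Figure D1:**
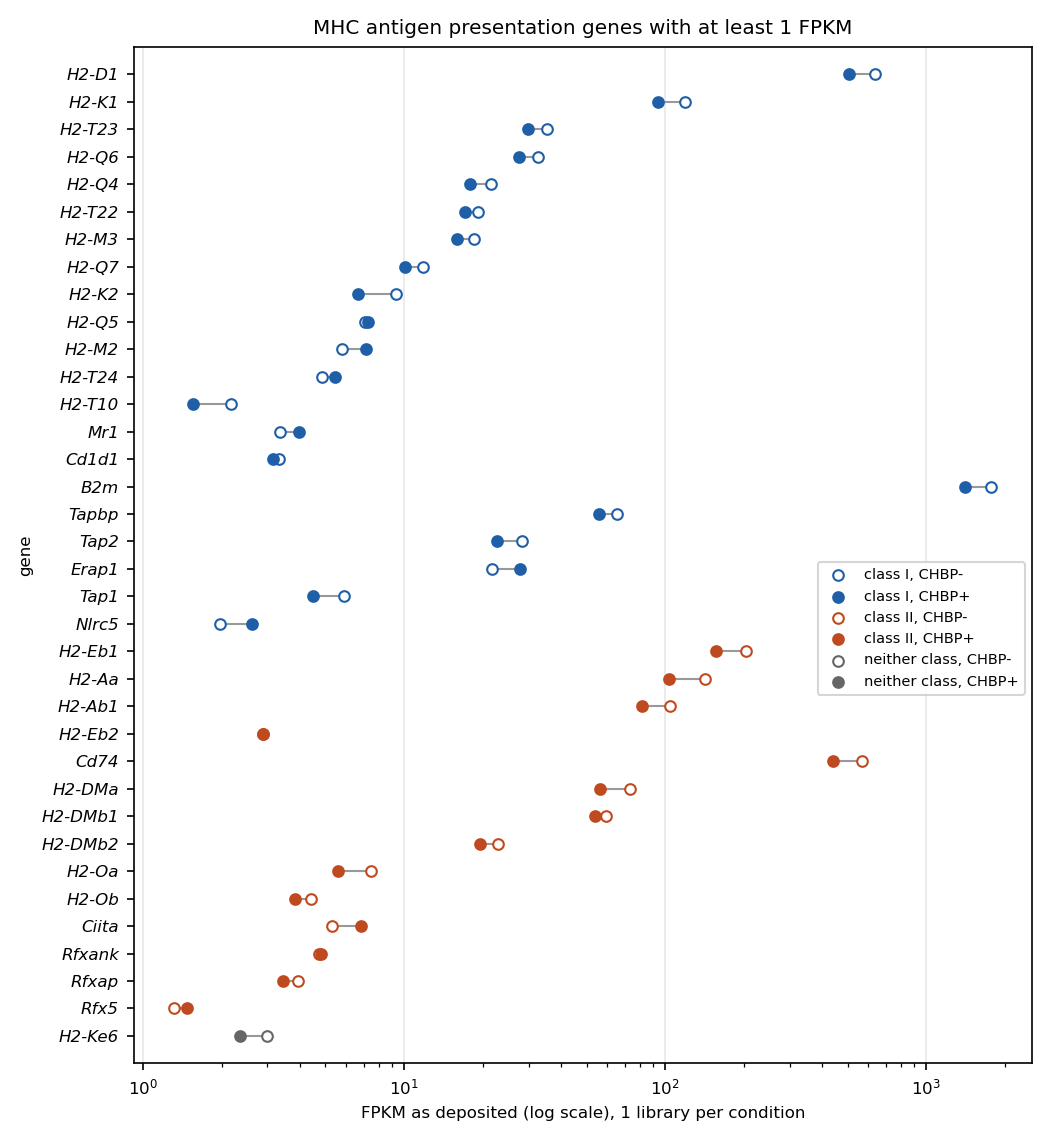
Deposited FPKM (log axis) of the 36 members with at least 1 FPKM, by role, with open circles for CHBP- and filled circles for CHBP+ M-MDSC and 1 library per condition. The filled circle lies left of the open one in 26 genes, and B2m, H2-D1 and Cd74 have the highest values.

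The classical class I heavy chains H2-K1 and H2-D1 present peptides to CD8+ T cells, and both were lower in CHBP+ M-MDSC. H2-D1 (ENSMUSG00000073411, chromosome 17, 35262730 to 35267499) had 32593 reads in CHBP- and 25587 in CHBP+, or 636 and 506 FPKM. Its CPM ratio was 0.795 (0.782 to 0.808). H2-K1 (ENSMUSG00000061232, chromosome 17, 33996017 to 34000333) had 14206 and 11097 reads, or 119 and 93.7 FPKM, with a CPM ratio of 0.791 (0.771 to 0.811). The proportion between the heavy chains was nearly the same in both libraries. H2-D1 over H2-K1 was 5.37 in CHBP- and 5.40 in CHBP+ by FPKM, and 2.05 and 2.06 when reads were divided by the longest annotated transcript, because the length behind the deposited FPKM of H2-K1 was 7271 bases against 1874 bases for that transcript. Within the coding sequence, 12.8% of the 75-base words of H2-D1 and 2.32% of those of H2-K1 also occur in another gene.

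B2m (ENSMUSG00000060802, chromosome 2, 122147686 to 122153083) encodes β2-microglobulin, the light chain of all classical class I molecules. It had 25110 reads and 1771 FPKM in CHBP- and 19599 reads and 1400 FPKM in CHBP+, with a CPM ratio of 0.790 (0.776 to 0.805). By FPKM it stood at rank 11 of all genes in CHBP- and rank 18 in CHBP+. The ratio of B2m to H2-D1, 2.78 in CHBP- and 2.77 in CHBP+ by FPKM, hardly differed between the libraries. Thus B2m, H2-D1 and H2-K1 were lower by a similar amount before any account of transcript length, with CPM ratios from 0.790 to 0.795. With the trend with transcript length removed, as given below, their log2 ratios of FPKM + 1 were -0.03, -0.20 and -0.17.

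Transcripts of the genes for class I peptide transport and loading were lower, while the gene of the trimming enzyme was higher. Tap1 and Tap2 form the transporter that brings peptides into the endoplasmic reticulum. Tap1 had 1138 and 854 reads, or 5.88 and 4.47 FPKM in CHBP- and CHBP+, a CPM ratio of 0.760 (0.695 to 0.831). Its span overlaps Psmb9, and the reads of both genes together gave 0.764 (0.712 to 0.820). Tap2 had 2498 and 1973 reads, or 28.3 and 22.6 FPKM, a ratio of 0.80 (0.754 to 0.849). Tapbp, which encodes tapasin and bridges the transporter to the heavy chain, had 5094 and 4266 reads, or 65.6 and 55.6 FPKM, a ratio of 0.848 (0.814 to 0.883). Its span overlaps Zbtb22 and Gm19412. Erap1, the aminopeptidase that trims peptides in the endoplasmic reticulum, went the other way, with 1443 reads in CHBP- and 1809 in CHBP+, or 21.8 and 27.7 FPKM. Its ratio was 1.27 (1.18 to 1.36), and its log2 ratio of FPKM + 1, 0.33, was the highest among the 36 members.

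Non-classical heavy chains present restricted peptides or act on NK cells and other lymphocytes. Of the 29 listed, 11 reached 1 FPKM, 8 of them lower and 3 higher, beside 53.7% lower over all genes at that level. H2-T23, which encodes Qa-1 and holds class I leader peptides for the NK receptor NKG2A, was the most abundant by FPKM, with 3738 and 3141 reads, 35.2 and 29.9 FPKM and a CPM ratio of 0.851 (0.811 to 0.892). H2-M3, which presents formylated peptides, had 440 and 374 reads, 18.6 and 16.0 FPKM and a ratio of 0.861 (0.748 to 0.990). The Qa-2 genes H2-Q6 and H2-Q7 are near copies of each other, and 20.8% and 23.0% of their coding 75-base words occur in another gene, so they are best read as a pair. Together they had 2645 reads in CHBP- and 2219 in CHBP+, a ratio of 0.849 (0.802 to 0.899). H2-Q6 alone had 1206 and 1004 reads (32.6 and 27.5 FPKM) and H2-Q7 had 1439 and 1215 reads (11.8 and 10.1 FPKM).

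The other non-classical genes had fewer reads and wider intervals. H2-Q4 had 1387 and 1136 reads (21.5 and 17.9 FPKM), and its CPM ratio was 0.829 (0.766 to 0.898). H2-T22 and H2-T10 encode ligands of γδ T cells and share coding words, 26.4% of those of H2-T22 being found in another gene. H2-T22 had 1707 and 1505 reads (19.2 and 17.1 FPKM), a ratio of 0.893 (0.832 to 0.957), and H2-T10 had 168 and 119 reads (2.17 and 1.55 FPKM), a ratio of 0.717 (0.562 to 0.912). H2-K2 had 161 and 114 reads (9.31 and 6.68 FPKM), a ratio of 0.717 (0.559 to 0.917). On the other side, H2-M2 had 220 and 268 reads (5.80 and 7.15 FPKM), a ratio of 1.23 (1.03 to 1.48). The intervals of H2-Q5, with 232 and 236 reads (7.07 and 7.28 FPKM) and a ratio of 1.03 (0.856 to 1.24), and of H2-T24, with 221 and 245 reads (4.84 and 5.43 FPKM) and a ratio of 1.12 (0.932 to 1.35), both spanned 1. The spans of H2-T22, H2-T23 and H2-T24 overlap A930015D03Rik, and that of H2-Q4 overlaps Gm11131. All 29 non-classical genes together had a ratio of 0.868 (0.844 to 0.892), above the ratio of 0.794 (0.783 to 0.805) for H2-K1 and H2-D1 together. Below 1 FPKM, H2-Q10 had 24 and 19 reads, H2-M5 had 6 and 9, and H2-Bl had 3 and 0. The 15 class I genes without reads had names that start with H2-M, among them the H2-M10 family, or were H2-Q1, H2-Q2, H2-Q3 and H2-T3.

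Of the class I-like molecules, Mr1 was higher and Cd1d1 nearly level. Mr1, which shows vitamin B metabolites of microbes to MAIT cells, had 595 reads in CHBP- and 695 in CHBP+, or 3.35 and 3.96 FPKM, a CPM ratio of 1.18 (1.06 to 1.32). Cd1d1, which shows lipids to NKT cells, had 222 and 208 reads, or 3.32 and 3.15 FPKM, a ratio of 0.949 (0.781 to 1.15) whose interval spans 1 and also holds the ratios of H2-D1 and H2-K1. Its neighbour Cd1d2 shares 29.7% of the coding words of Cd1d1.

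In class II, transcripts of the presenting chain genes H2-Aa, H2-Ab1 and H2-Eb1 were lower together. The α chain gene H2-Aa (ENSMUSG00000036594, chromosome 17, 34282744 to 34287827) had 6003 reads and 142 FPKM in CHBP- and 4303 reads and 103 FPKM in CHBP+. Its CPM ratio was 0.726 (0.698 to 0.755), and its log2 ratio of FPKM + 1, -0.46, was the lowest among the 36 members. Its partner H2-Ab1 had 4036 and 3119 reads, or 104 and 81.4 FPKM, a ratio of 0.782 (0.747 to 0.820). H2-Eb1, the β chain of the second class II molecule, had 3974 and 3018 reads, or 204 and 157 FPKM, a ratio of 0.769 (0.733 to 0.806). Its α chain partner is listed as a pseudogene, H2-Ea-ps, with no read in either library. That gene has lost its promoter in C57BL/6 mice. H2-Eb2 had 105 and 104 reads and 2.88 and 2.89 FPKM, a ratio of 1.00 (0.757 to 1.33), and the ratios of H2-Ab1 and H2-Eb1 lie inside that interval. The class II chains together held 14118 and 10544 reads, a ratio of 0.756 (0.737 to 0.776).

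**Figure D2:**
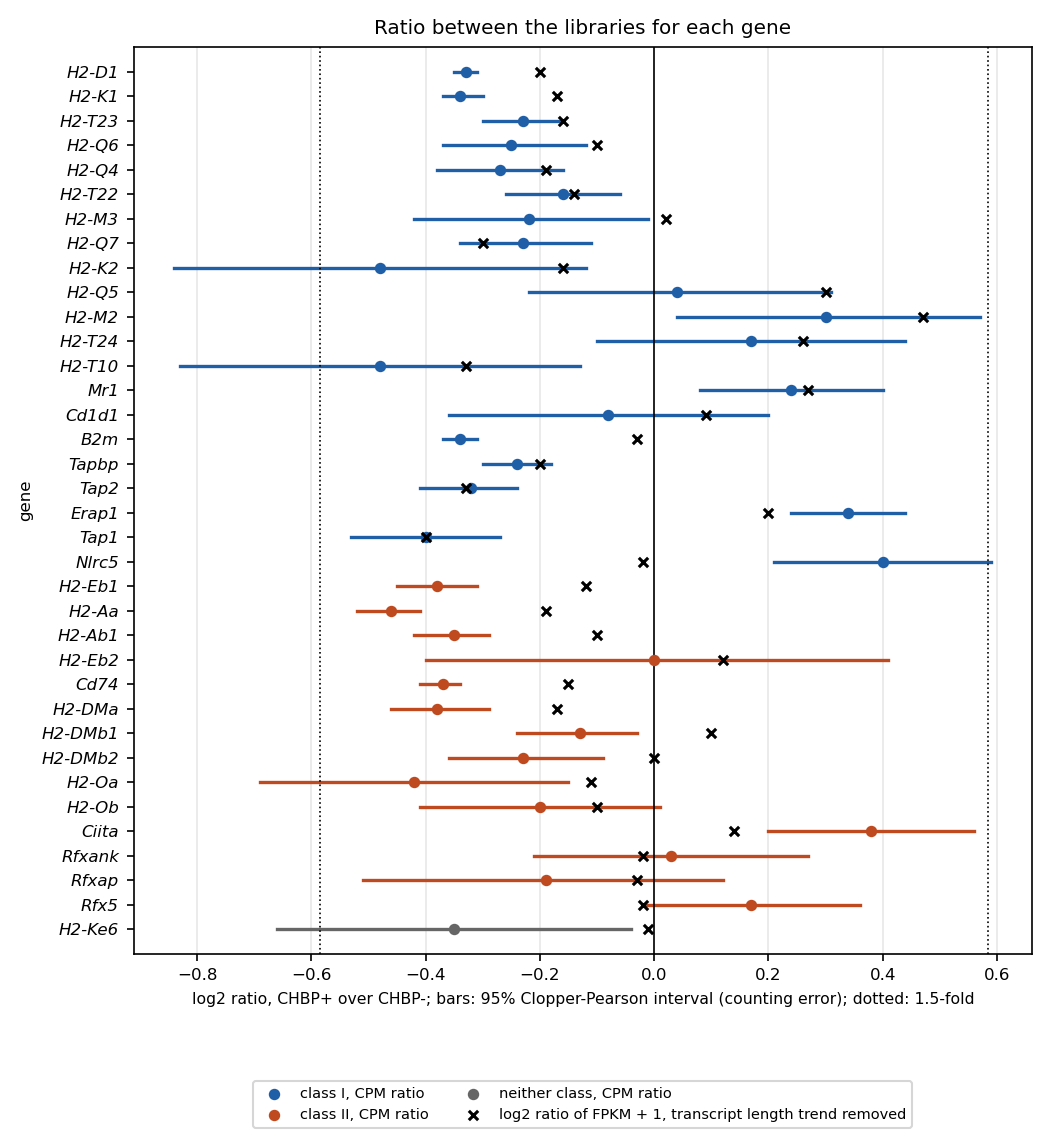
The log2 ratio of CPM (CHBP+ over CHBP-) of the 36 members, with bars for the 95% Clopper-Pearson interval and dotted lines at 1.5-fold, and crosses for the log2 ratio of FPKM + 1 after removal of the trend with transcript length. The points of 26 genes lie left of 0, those of Erap1, Nlrc5, Ciita, H2-M2 and Mr1 lie right of it with their whole bars, and many crosses lie nearer to 0 than the points.

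The genes that escort and load class II were lower as well, 6 of 6, with 5 intervals below 1. Over the 10948 genes with at least 1 FPKM, 53.7% were lower and 31.0% had intervals below 1. With the trend with transcript length removed, 4 of the 6 were lower and 2 higher. Cd74 (ENSMUSG00000024610, chromosome 18, 60803848 to 60812646) had 18730 reads in CHBP- and 14275 in CHBP+, or 567 and 438 FPKM, a CPM ratio of 0.772 (0.755 to 0.789). Cd74 transcripts were more abundant than those of any class II chain. Cd74 over H2-Aa was 3.99 in CHBP- and 4.24 in CHBP+ by FPKM, or 2.5 and 2.66 per longest transcript. H2-DMa, a subunit of the peptide exchange factor, had 2659 and 2020 reads, or 73.2 and 56.3 FPKM, a ratio of 0.769 (0.726 to 0.815). Its partner subunit is encoded by H2-DMb1 and H2-DMb2, whose coding sequences share 35.7% of their words. H2-DMb1 had 1616 and 1455 reads (59.1 and 53.9 FPKM), a ratio of 0.912 (0.849 to 0.979), H2-DMb2 had 947 and 800 reads (22.8 and 19.5 FPKM), a ratio of 0.855 (0.778 to 0.941), and both together gave 0.891 (0.841 to 0.943). H2-DMa over H2-DMb1 alone, with H2-DMb2 left out, was 1.24 in CHBP- and 1.04 in CHBP+ by FPKM. Per longest transcript it was 1.48 and 1.25.

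H2-Oa and H2-Ob encode H2-O, the inhibitor of H2-DM that is best known from B cells. H2-Oa had 268 and 198 reads, or 7.45 and 5.57 FPKM, a CPM ratio of 0.748 (0.619 to 0.902). H2-Ob had 396 and 341 reads, or 4.41 and 3.84 FPKM, and its ratio of 0.872 (0.752 to 1.01) had an interval that spans 1. Transcripts of the inhibitor were scarce beside those of the factor it restrains. By FPKM in CHBP- and CHBP+, H2-DMa over H2-Oa was 9.83 and 10.1, and H2-DMb1 over H2-Ob was 13.4 and 14.0. Per longest transcript, these ratios were 7.85 and 8.08 for H2-DMa over H2-Oa and 7.80 and 8.16 for H2-DMb1 over H2-Ob. These proportions differed little between the libraries.

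Among the 5 transcription factors of both pathways, the intervals of Ciita and Nlrc5 lay above 1 and those of the 3 RFX subunits spanned 1. By value alone, 4 were higher in CHBP+ and 1 lower, and with the trend with transcript length removed, 1 was higher and 4 lower. Ciita, the master regulator of class II, had 457 reads in CHBP- and 586 in CHBP+, or 5.28 and 6.85 FPKM, a CPM ratio of 1.30 (1.15 to 1.47). Its span overlaps Dexi. Nlrc5, its counterpart for class I, had 402 and 525 reads, or 1.97 and 2.61 FPKM, a ratio of 1.32 (1.16 to 1.51). Of the subunits of the RFX complex, Rfx5 had 430 and 477 reads (1.32 and 1.48 FPKM), a ratio of 1.12 (0.984 to 1.28). Rfxank had 286 and 288 reads (4.72 and 4.81 FPKM), a ratio of 1.02 (0.863 to 1.21), and its span overlaps Nr2c2ap. Rfxap had 183 and 158 reads (3.94 and 3.44 FPKM), a ratio of 0.874 (0.702 to 1.09). The median log2 ratio of FPKM + 1 was 0.10 over the regulators and -0.36 over the 10 class II chains and loading genes above the minimum. H2-Ke6, a metabolic enzyme gene of the same chromosomal region that belongs to neither class, had 205 and 159 reads (2.99 and 2.35 FPKM), a ratio of 0.785 (0.634 to 0.971), and its span overlaps Gm20427.

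These differences went along with the length of the transcripts, a property of the whole table. Across 10508 genes with a transcript in GENCODE M1, Spearman's rho of the log2 ratio of FPKM + 1 with the longest transcript's length was 0.658, and over the 36 members it was 0.554. These are correlations across genes of the same libraries, and genes are not independent replicates. Among transcripts of 1 to 2 kb, the median log2 ratio was -0.23 over all genes and -0.34 over 15 members, and from 2 to 4 kb it was -0.04 over all genes and -0.23 over 15 members. Over 4 kb, it was 0.20 over all genes and 0.28 over the 5 members, while B2m, the only member under 1 kb, had -0.34 beside -0.36 for all genes of that length. The class II chains have short transcripts, with a median of 1194 bases, and the regulators long ones, with a median of 4450 bases.

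**Figure D3:**
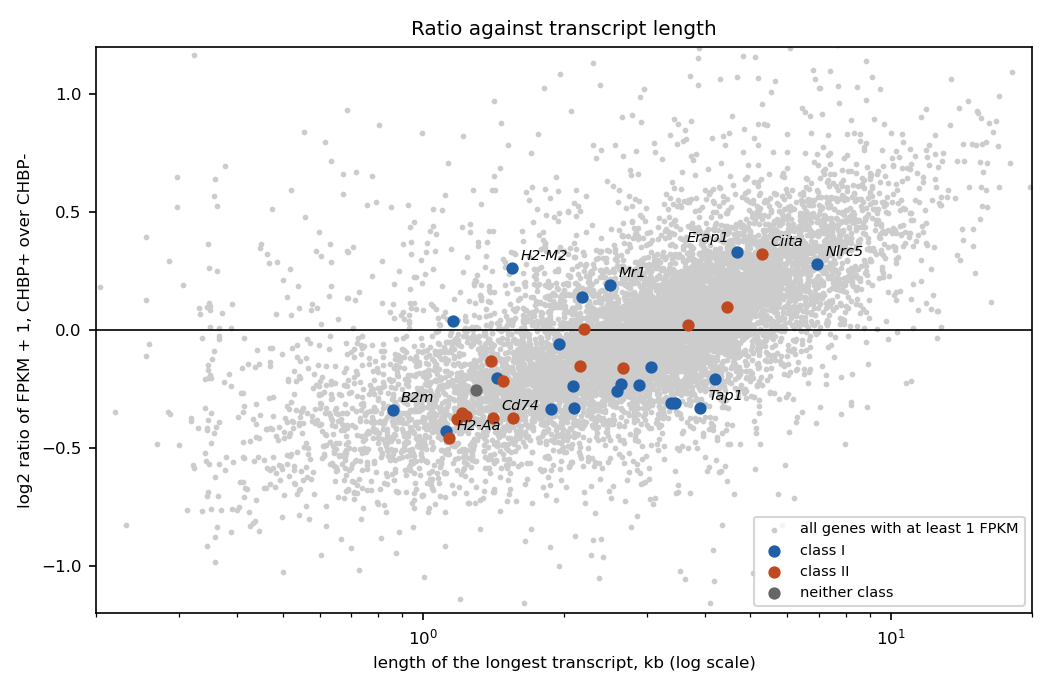
Log2 ratio of FPKM + 1 (CHBP+ over CHBP-) against the length of the longest annotated transcript in kb (log axis) for 10508 genes (grey, 88 of them beyond the axes) and the members (coloured by class). The ratio is higher for longer transcripts, B2m and H2-Aa lie among short ones, Ciita, Erap1 and Nlrc5 among long ones, and Tap1 lies below genes of its length.

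After the trend with transcript length was removed, a calculation chosen after seeing the data, the members lay closer to the other genes. The median log2 ratio became -0.14 for class I and -0.06 for class II, beside -0.01 for all genes, with 25 of the 36 members lower and 11 higher and 5458 of the 10508 genes lower and 5050 higher. The value of B2m became -0.03, that of H2-Aa -0.19, that of H2-Ab1 -0.10 and that of Cd74 -0.15. Tap1 and Tap2, whose transcripts are longer, kept -0.40 and -0.33, and H2-D1 and H2-K1 had -0.20 and -0.17. Among the genes that were higher, Erap1 had 0.20, Ciita 0.14 and H2-M2 0.47, while Nlrc5 went to -0.02. The regulators then had a median of -0.02, with 1 higher and 4 lower, and the class II chains and loading genes a median of -0.10, with 3 higher and 7 lower, so the regulators were no longer mostly higher. What sets the length trend was not tested.

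Other genes of these pathways were read from lists chosen by function. On the class I side, all 12 genes reached 1 FPKM, 9 lower and 3 higher, with a median log2 ratio of -0.22. None was at 1.5-fold on the scale of FPKM + 1. Over the 10948 genes with at least 1 FPKM, 53.7% were lower, 3.42% at least 1.5-fold higher and 2.89% at least 1.5-fold lower. Transcripts of the immunoproteasome, which cuts the peptides for class I, were lower. Psmb8 had 3470 and 2486 reads, a CPM ratio of 0.725 (0.689 to 0.764), Psmb10 had 697 and 469 reads, a ratio of 0.681 (0.605 to 0.767), and the activator subunit Psme1 had 1572 and 1137 reads, a ratio of 0.732 (0.678 to 0.791). The span of Psme1 overlaps Emc9. With the trend with transcript length removed, their log2 ratios were -0.30, -0.29 and -0.27. The other activator subunit, Psme2, had 987 and 791 reads, a ratio of 0.811 (0.738 to 0.892), and a log2 ratio of 0.01 with that trend removed. The chaperone gene Calr had 29627 and 25486 reads, a ratio of 0.871 (0.857 to 0.886), while its relative Canx had 8946 and 9663 reads, a ratio of 1.09 (1.06 to 1.13). Wdfy4, needed for cross-presentation in dendritic cells, had 2051 and 2757 reads, a ratio of 1.36 (1.28 to 1.44), and a log2 ratio of -0.07 once the trend with transcript length was removed.

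On the class II side, 9 of 11 listed genes were matched by name, 7 lower and 2 higher, with a median log2 ratio of -0.04. On the scale of FPKM + 1, 1 gene (Nfya) was at least 1.5-fold higher and 0 were that much lower. Over all genes with at least 1 FPKM, 53.7% were lower, 3.42% at least 1.5-fold higher and 2.89% at least 1.5-fold lower. The endosomal proteases that cut the invariant chain and antigens were nearly level between the libraries. Ctss had 29003 and 28343 reads, a CPM ratio of 0.989 (0.973 to 1.01), with a span that overlaps Hmgb1-ps5, and Ctsl had 32761 and 31572 reads, a ratio of 0.976 (0.961 to 0.991). The NF-Y subunits diverged. Nfya, which encodes the subunit that contacts the Y box, had 930 reads in CHBP- and 2218 in CHBP+, or 3.68 and 8.88 FPKM, a ratio of 2.41 (2.24 to 2.61), whereas Nfyb had 815 and 718 reads, a ratio of 0.892 (0.806 to 0.987), and Nfyc had 289 and 228 reads, a ratio of 0.799 (0.669 to 0.954). Nfya kept a log2 ratio of 1.03 after the trend with transcript length was removed. On the interferon gamma route, which drives Ciita and Nlrc5 in many cells, Jak1 had 5947 and 7581 reads, a ratio of 1.29 (1.25 to 1.34), and Irf1 had 591 and 646 reads, a ratio of 1.11 (0.988 to 1.24). The receptor chain gene Ifngr2 had 3326 and 2970 reads, a ratio of 0.904 (0.860 to 0.95). The 6 genes of this route that were looked up had a median log2 ratio of 0.04, with 3 higher and 3 lower.

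**Figure D4:**
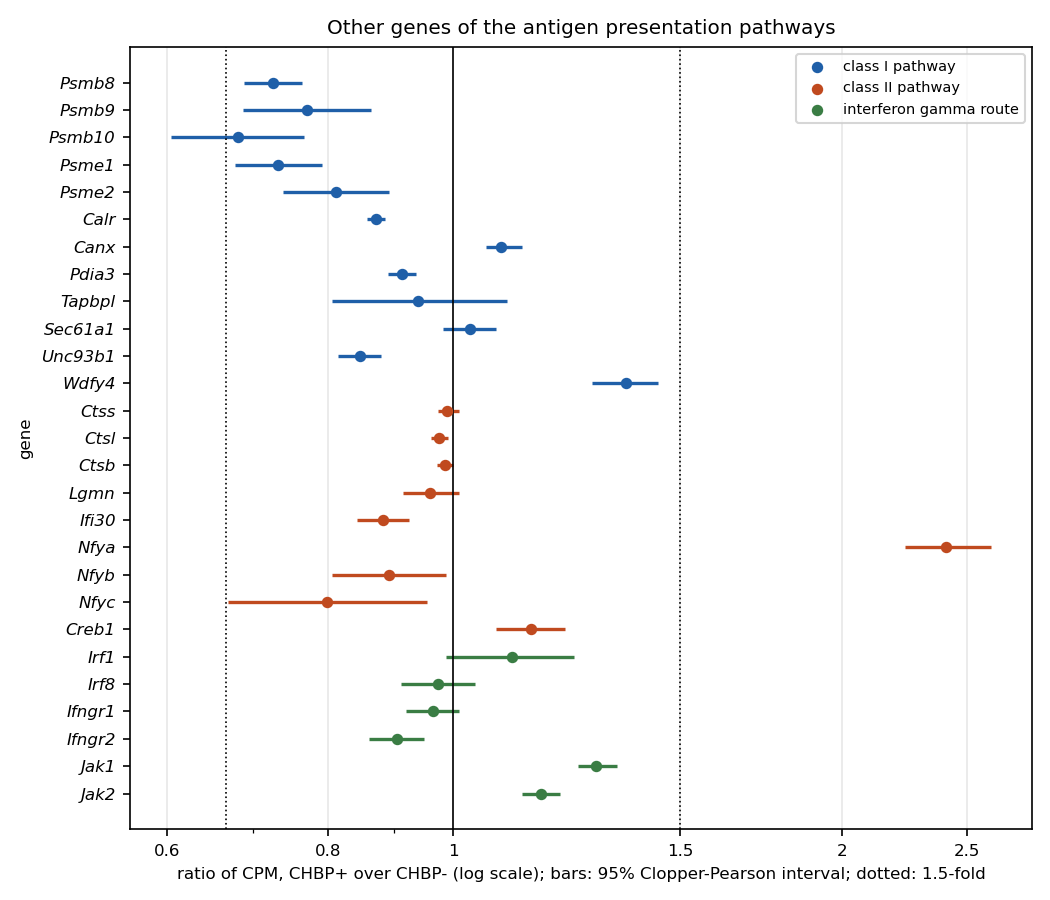
Ratio of CPM (CHBP+ over CHBP-, log axis) of the other pathway genes with at least 1 FPKM, coloured by list, with bars for the 95% Clopper-Pearson interval and dotted lines at 1.5-fold. Nfya at 2.41 lies right of the upper line, and the immunoproteasome genes Psmb8 and Psmb10 lie among the lowest.

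Marker genes of other cells that the sorted fraction could hold were looked up beside these results. The sort on CD11b and Ly6C would remove most B and T cells. All 5 B cell genes reached 1 FPKM, their summed level was 41.3 FPKM in CHBP- and 28.1 FPKM in CHBP+, and Cd79a went from 18.5 to 10.5 FPKM. The dendritic cell list summed to 114 and 150 FPKM, nearly all of it Itgax with 107 and 142 FPKM, while Xcr1 had no read. The list of mature dendritic cells summed to 115 and 102 FPKM, with Ccr7 at 17.6 and 13.1. The macrophage list summed to 588 and 629 FPKM, and the neutrophil and granule list to 1945 and 1394 FPKM. Most of the latter sum was S100a9, with 1269 and 937 FPKM, and S100a8, with 576 and 391 FPKM, while Ly6g had 2.19 and 2.12 FPKM. No T cell gene exceeded 1.11 FPKM in either library. The part of these cells in the lower class II values was not tested.

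The promoter motifs were counted over the 25 of the 36 members that have an entry among 32851 RefSeq promoters, both strands searched. The Y box core CCAAT was found in 12 of 14 class I and 9 of 10 class II promoters, beside 33.8% of all promoters. The class II promoters counted here include those of the regulators Rfx5 and Rfxank. The class II window without it was that of H2-DMa. That window, at 34122582 to 34122831 on chromosome 17, lies far upstream of the deposited gene start at 34135182, so it may not be the promoter of the counted transcripts. CTNGCAAC, a form of the X box core, was added after the H2-Aa and H2-Eb1 promoters had been read, so their matches were fixed in advance. It occurred in 4 of 10 class II promoters, those of H2-Aa, H2-Eb1, H2-Eb2 and H2-Ob. In class I, 2 of 14 promoters held it, those of Mr1 and H2-D1, as did 2.84% of all promoters. The class II count can therefore not be weighed against that share. The H2-Eb2 match lay 5 to 12 bases before the start, nearer to it than the Y box core at 96 to 100 bases. The other form, CCTNGNAAC, which can overlap CTNGCAAC, was in 3 of 10 class II and 3 of 14 class I promoters and in 4.06% of all. The kappa B motif GGGATTCCC occurred in 4 of 14 class I promoters, those of H2-K1, H2-D1, H2-Q6 and H2-Q7, in 0 of 10 class II promoters and in 0.301% of all promoters. These 4 windows hold nearly the same letters around the motif, so their matches are not independent of each other. The interferon response core TTCNNTTTC was in the promoters of B2m, Erap1, H2-T22 and H2-T23, in none of class II and in 7.13% of all promoters. Only this exact pattern was searched, so a promoter without a match can hold another form of the element. The similar letters TTTCACTTCT, which the pattern does not match, stand in the windows of H2-K1, H2-D1, H2-Q4, H2-Q6 and H2-Q7, among others. The 4 genes with the kappa B motif had CPM ratios from 0.791 for H2-K1 to 0.855 for H2-Q7. Of the 4 genes with the interferon response core, B2m, H2-T23 and H2-T22 were lower, at 0.790, 0.851 and 0.893, and Erap1 was higher, at 1.27.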

How the data were processed

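Total RNA of sorted M-MDSCs was sequenced as 1 library per condition, with single-end reads of 75 bases. The authors deposited, for each gene, the raw read count and the FPKM. The deposited FPKM equals the count over the product of a length per gene and the library's total, and that length differed between the libraries by at most 0.0211% over 15864 genes. The study's methods name TopHat2, HT-seq and mm9, whereas the submitters' processing notes list HISAT2 2.0.4, Cufflinks 2.1.1, Cuffdiff, mm10 and GRCm38. Of the 56 members found by symbol in RefSeq GRCm38.p6, 56 overlapped the deposited coordinates, against 1 of 56 found by identifier on NCBIM37 (mm9), so the coordinates are on GRCm38. How strand and multi-mapping reads were handled is not given in the sources used here, which leaves the counts of paralogs and of genes that overlap uncertain. Overlapping genes are named where they had at least 10 reads.

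The main value was the log2 of the ratio of FPKM + 1 between CHBP+ and CHBP-, computed for genes with at least 1 FPKM in either library, and it understates differences of genes with low FPKM. CPM ratios carry exact 95% Clopper-Pearson intervals. Since several reads can come from the same molecule, these intervals and the limit of 3 reads cover counting error only. No count model was fitted, because 1 library per condition leaves no spread to estimate, and the DESeq P value of the study's methods was not repeated. Every member with at least 1 FPKM is named, and other pathway genes come from lists by function. A gene of the interferon gamma list is not reported here. Members and lists were chosen with earlier results of these data known. The length trend was removed with a least-squares polynomial of degree 3 in log2 length. In simulated data this removed a straight trend put in with the gene length behind the FPKM. Removal of the trend with transcript length was not simulated. Promoter sequences are from RefSeq on GRCm38.p6, and transcript lengths and coding words from GENCODE M1. Python 3.11.15, numpy 2.4.6, pandas 2.3.3, scipy 1.17.1, matplotlib 3.10.9, and edgeR 4.0.16 in R 4.3.3 (for trimmed mean of M values) were used.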

Additional observations from a re-analysis of the deposited data

How the results depend on the processing

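No paired analysis was possible because each condition is 1 library, and for the same reason no replicate could be left out. With a pseudocount of 0.1, median centring, no minimum, CPM, a minimum of 5 FPKM, scaling by trimmed mean of M values, removal of the trend with gene or transcript length, members with overlapping genes left out, or a fold threshold of 2, the number of members past the fold stayed at 0 in both directions. The class I median ranged from -0.23 to -0.14. The class II median ranged from -0.36, with a minimum of 5 FPKM, to -0.06, with the trend with transcript length removed. That removal, chosen after seeing the data, turned the sign of 7 of the 36 members, H2-M3 (0.02), Cd1d1 (0.09), Nlrc5 (-0.02), H2-DMb1 (0.10), H2-DMb2 (0.00), Rfxank (-0.02) and Rfx5 (-0.02). Removal of the trend with gene length turned 3, Cd1d1 (0.00), H2-DMb1 (0.06) and Rfx5 (-0.19), and the other settings turned 0. The cause was not tested. The counts of all genes at least 1.5-fold higher and lower, 374 and 316, became 665 and 571 with a pseudocount of 0.1, and 229 and 111 with the trend with transcript length removed. At this depth the intervals of the CPM ratio of 31 of the 36 members lay within 1.5-fold in both directions (86.1%, beside 69.0% of all genes).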
